A study of Neurospora crassa with 12 samples.

Results

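The genes described here were 5 genes of *Neurospora crassa* that act in protein folding and stress signalling in the endoplasmic reticulum (ER). They were taken by their identifiers from the count tables of 9730 genes: *ire-1* (NCU02202), *hac-1* (NCU01856), *grp78* (NCU03982), a protein disulfide isomerase (PDI, NCU09223) and calnexin (NCU09265). All 5 passed the filter on low counts and were among the 7746 genes tested. The rule names identifiers and no threshold on levels, but the 5 genes were put together with earlier results of these data known, and the study itself lists *grp78* among its genes that differ on these same samples. The strain differences below are therefore not independent evidence of their direction. RNA-Seq had been carried out on germlings, the young hyphae that emerge from asexual spores (conidia), and 12 libraries fell into 4 groups of 3 replicates numbered I, II and III. The wild type was the strain 74A (*mat A*). The mutant was a strain in which *mus-52*, a gene for a Ku protein of DNA end joining, is replaced by a hygromycin resistance cassette, and which is *mat a*. The effects of the disruption, of the mating type and of any other difference between these strains cannot be told apart in this design. In every group, conidia of 6-day cultures germinated for 5 h (30 °C, 44 mM sucrose, pH 5.4), with inorganic phosphate at 10 µM (low-Pi) or 10 mM (high-Pi).

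The ER is where secreted and membrane proteins are folded. GRP78 (also called BiP) is the Hsp70 chaperone of the ER lumen, calnexin is a membrane-bound chaperone that holds glycoproteins carrying a trimmed sugar chain, and PDI forms and rearranges disulfide bonds. When unfolded proteins build up in a fungal ER, the kinase and nuclease IRE1 cuts an intron out of the *hac-1* mRNA, and the bZIP transcription factor made from the spliced mRNA raises the transcription of chaperone genes in the unfolded protein response, as worked out in yeast. Counts per gene do not separate spliced from unspliced *hac-1* mRNA, so they bear on its amount and not on its splicing.

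Several facts about the libraries touch every value below. The libraries held 17574263 to 56152963 counted reads, and an undetected gene would have been limited to 3 counts, or 0.0535 to 0.182 CPM (counts scaled to library size with edgeR's TMM factors), which covers counting error only. In both media wild-type replicate I differed from its group, with correlations of 0.931 to 0.952 with replicates II and III across genes (log2 CPM), against 0.988 or more for every other pair within a group. Each member's result is therefore given with and without these libraries. The low-Pi counts of *mus-52* itself were 970, 567 and 487 in the libraries labelled *mus-52*, and 843, 389 and 433 in the wild type. In high-Pi the counts were 1344, 513 and 831, and 3246, 609 and 465. Scaled to library size, the high-Pi levels were 23.9, 21.0 and 22.7 CPM in the libraries labelled *mus-52* and 75.9, 37.0 and 24.0 CPM in the wild type. That is a log2 fold change of −1.02 (edgeR adjusted p = 0.0439), where 48.8% of all genes tested passed. In low-Pi the groups overlapped (−0.11, edgeR adjusted p = 0.825). Reads of the disrupted gene were counted in every library labelled *mus-52*. Its counts therefore do not check the strain label, and directions are given for the libraries as labelled. The study's methods describe a separate qRT-PCR check of the knockout, which was not used here. In bulk samples such as these, fewer cells of a type and less RNA per cell cannot be told apart.

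The 5 genes lay far apart in level. Per kb of gene span, introns included (CPM per kb, on the NC12 assembly), *grp78* ranked first in 11 of the 12 libraries and *ire-1* last in all 12. *grp78* (chromosome VI, 2329825 to 2332792, 2968 bp) had mean levels of 511 CPM per kb in the wild type in low-Pi and 503 in high-Pi, and of 120 and 157 in the libraries labelled *mus-52*. *ire-1* (chromosome VII, 3349507 to 3354270, 4764 bp) lay between 20.8 and 25.6 CPM per kb in the 4 group means. Calnexin (chromosome I, 9359863 to 9362512, 2650 bp), *hac-1* (chromosome I, 2241564 to 2244540, 2977 bp) and PDI (chromosome I, 5899718 to 5902177, 2460 bp) lay in between, and their order changed from library to library. In the wild type the group means of calnexin were 204 and 212 CPM per kb in low- and high-Pi, those of *hac-1* 151 and 152, and those of PDI 112 and 145. In the libraries labelled *mus-52* the low-Pi means were 94.5 for calnexin, 111 for *hac-1* and 69.9 for PDI, and the high-Pi means were 109, 72.5 and 72.4. In the wild type these 3 neighbours in the order overlapped in each medium, as did *grp78* and calnexin in low-Pi through replicate I. Among the libraries labelled *mus-52*, *hac-1* overlapped both *grp78* and calnexin in low-Pi and PDI in high-Pi. The exception to the leading place of *grp78* was replicate II labelled *mus-52* in low-Pi, where *hac-1* stood at 117 and *grp78* at 109 CPM per kb. None of the 5 genes overlaps another annotated gene, and each has 1 annotated transcript.

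The wild type and the libraries labelled *mus-52* were compared in each medium. *grp78* was much lower in the libraries labelled *mus-52* in both media, by about 4-fold in low-Pi and 3-fold in high-Pi, and it was the only member past the DEG threshold (adjusted p ≤ 0.05 and an absolute log2 fold change of 1.5 or more). Calnexin was about 2-fold lower in both media and *hac-1* in high-Pi, with adjusted p-values under 0.05 but changes under the fold threshold. PDI and *ire-1* did not pass edgeR's test between the strains with all libraries. The DEGs were therefore 1 of 5 members in low-Pi, where 13.3% of all genes tested were DEGs (7.51% lower), and 1 of 5 in high-Pi, where 19% were (11.7% lower).

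**Figure D1:**
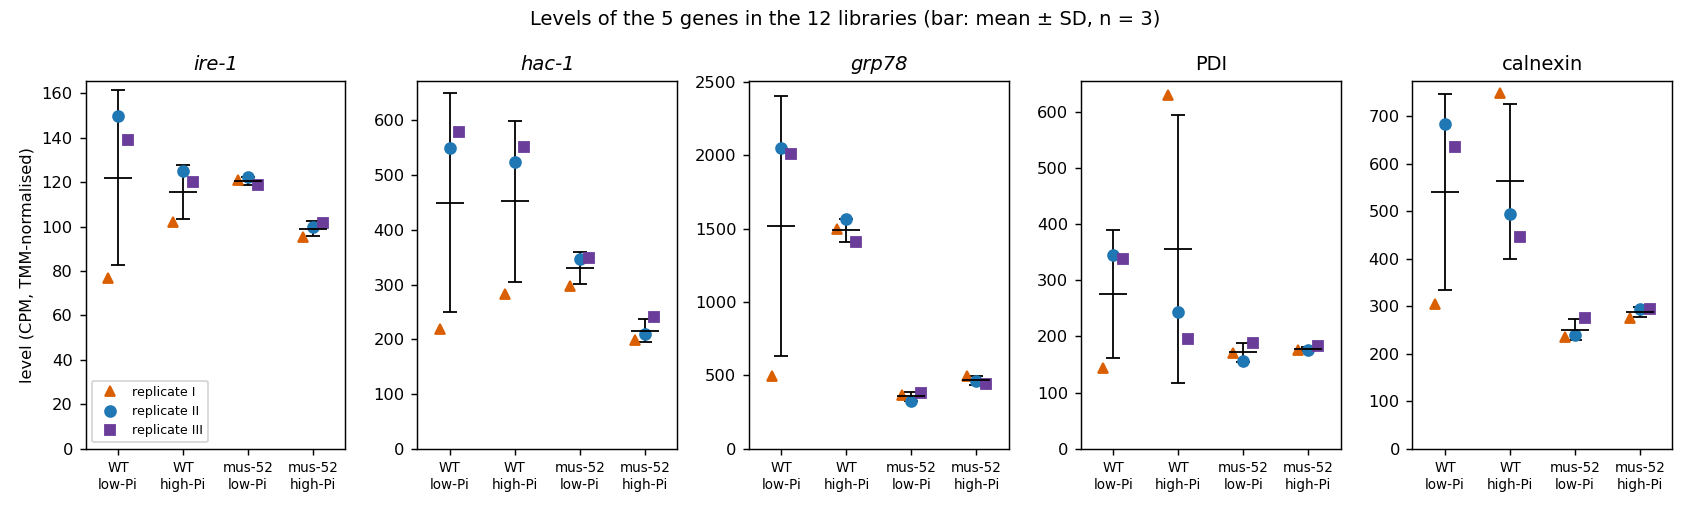
Level of each gene in CPM (vertical axis, linear, a scale of its own for each gene) in the 12 libraries, by strain and medium, with symbols for the replicate number and bars for the mean ± SD (n = 3). The libraries labelled *mus-52* sit between 323 and 499 CPM for *grp78*, while the wild type sits between 1410 and 2051 except replicate I in low-Pi, which is at 494.

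The levels of *grp78* in low-Pi were 494, 2051 and 2007 CPM in wild-type replicates I, II and III and 368, 323 and 379 CPM in the libraries labelled *mus-52*. Replicate I of the wild type was the lowest of its group, and yet the groups did not overlap. In high-Pi the levels were 1499, 1566 and 1410 CPM in the wild type and 499, 460 and 442 CPM in the libraries labelled *mus-52*. Here all 3 wild-type libraries were close together and all were well above the other group. The log2 fold change was −2.09 in low-Pi (SE 0.413, adjusted p = 0.00461, quasi-likelihood test of edgeR) and −1.68 in high-Pi (SE 0.408, adjusted p = 0.00750), that is 4.26-fold and 3.19-fold lower. With both wild-type replicates I left out, the log2 fold changes were −2.58 and −1.71. *grp78* remained a DEG in each medium in every one of the 12 fits that left out 1 library, with log2 fold changes of −2.59 to −1.81 in low-Pi and −1.73 to −1.62 in high-Pi.

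Calnexin was lower in the libraries labelled *mus-52* by a smaller factor. Its levels in low-Pi were 304, 683 and 634 CPM in the wild type and 236, 239 and 276 CPM in the libraries labelled *mus-52*. They were, in high-Pi, 748, 494 and 446 CPM against 275, 293 and 295 CPM. The groups did not overlap in either medium, although replicate I was the lowest wild-type library in low-Pi and the highest in high-Pi. The log2 fold change was −1.11 in low-Pi (SE 0.291, edgeR adjusted p = 0.0140) and −0.97 in high-Pi (SE 0.290, edgeR adjusted p = 0.0178), or 2.16-fold and 1.96-fold lower. Without both wild-type replicates I it was −1.47 and −0.75. The adjusted p-value rose above 0.05 in 3 of the 12 fits that left out 1 library in low-Pi and in 4 of 12 in high-Pi. In low-Pi these were the fits without wild-type replicate II (edgeR adjusted p = 0.0608), without wild-type replicate III (0.0545) and without replicate I labelled *mus-52* (0.0516). In high-Pi they were the fits without wild-type replicate I (edgeR adjusted p = 0.0541) and without replicate I, II or III labelled *mus-52* (0.0560, 0.0519 and 0.0504).

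PDI, which shares the work of folding with calnexin, did not pass edgeR's test with all libraries in either medium. Its levels in low-Pi were 144, 345 and 338 CPM in the wild type and 171, 156 and 189 CPM in the libraries labelled *mus-52*, so that replicate I of the wild type lay below the whole other group. In high-Pi they were 630, 243 and 195 CPM in the wild type and 176, 176 and 182 CPM in the libraries labelled *mus-52*. There the groups did not overlap, but replicate I of the wild type was far above the rest. The log2 fold change was −0.68 in low-Pi (SE 0.418, edgeR adjusted p = 0.205) and −0.999 in high-Pi (SE 0.420, edgeR adjusted p = 0.0680). Without both wild-type replicates I it was −1.06 and −0.34, and without the high-Pi library alone the high-Pi value was −0.29. The adjusted p-value was under 0.05 in low-Pi without wild-type replicate I in low-Pi (−1.07, edgeR adjusted p = 0.0270). In high-Pi it was under 0.05 without that same library (−0.98, edgeR adjusted p = 0.0273) and without wild-type replicate III in high-Pi (−1.26, edgeR adjusted p = 0.0352). With DESeq2 it was under 0.05 too (−1.04, adjusted p = 0.0393), where 46.1% of all genes passed. Without wild-type replicate I in low-Pi, DEGs were 1801 of 7847 genes in low-Pi and 1524 of 7847 in high-Pi. With all libraries they were 1034 and 1475 of 7746. These counts need the fold threshold too, which PDI did not reach. For the fits that left out 1 library, the share passing the adjusted p-value alone was not computed. With all libraries it was 38.4% in low-Pi and 48.8% in high-Pi.

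*hac-1* and *ire-1*, the pair that signals ER stress, are taken next. *hac-1* in low-Pi had 219, 550 and 578 CPM in the wild type and 297, 347 and 348 CPM in the libraries labelled *mus-52*, and the groups overlapped through replicate I of the wild type. In high-Pi its levels were 283, 523 and 551 CPM in the wild type and 198, 210 and 240 CPM in the libraries labelled *mus-52*, with no overlap. The log2 fold change of *hac-1* was −0.44 in low-Pi (SE 0.342, edgeR adjusted p = 0.312) and −1.07 in high-Pi (SE 0.345, edgeR adjusted p = 0.0246). The high-Pi adjusted p-value rose above 0.05 in 5 of the 12 fits that left out 1 library. These left out wild-type replicate II (edgeR adjusted p = 0.0829) or III (0.0917), or replicate I, II or III labelled *mus-52* (0.0807, 0.0770 and 0.0563). In low-Pi *hac-1* passed the adjusted p-value, but not the fold threshold, without wild-type replicate I in low-Pi (−0.85, edgeR adjusted p = 0.0134). There 1801 of 7847 genes tested were DEGs, a rule that needs the fold threshold too. The share passing the adjusted p-value alone was not computed for that fit. In low-Pi it was 38.4% with all libraries and 72% without both wild-type replicates I. Without both wild-type replicates I the log2 fold changes of *hac-1* were −0.84 in low-Pi and −1.36 in high-Pi.

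*ire-1* was the steadiest of the genes. Its levels in low-Pi were 76.9, 150 and 139 CPM in the wild type and 121, 122 and 119 CPM in the libraries labelled *mus-52*, whose 3 values lay inside the range of the wild type. In high-Pi they were 102, 125 and 120 CPM in the wild type and 95.2, 100 and 102 CPM in the libraries labelled *mus-52*, and the wild type's lowest value stood just above the other group's highest. The log2 fold changes were −0.01 (SE 0.218, edgeR adjusted p = 0.961) and −0.23 (SE 0.218, edgeR adjusted p = 0.402). Without both wild-type replicates I they were −0.33 and −0.35. Without the low-Pi library alone the low-Pi value was −0.34 (edgeR adjusted p = 0.0410), far under the fold threshold. The share of all genes passing the adjusted p-value alone was not computed for that fit. In low-Pi it was 72% without both wild-type replicates I. Over all 12 libraries *ire-1* spanned 1.95-fold, against 2.92-fold for *hac-1*, 3.17-fold for calnexin, 4.37-fold for PDI and 6.36-fold for *grp78*. The SD of log2 CPM over the libraries put *ire-1* at percentile 12.9 of the genes tested and *grp78* at percentile 86.5.

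Read over the 5 genes, 2 reached adjusted p ≤ 0.05 in low-Pi and 3 in high-Pi, all lower in the libraries labelled *mus-52*, where 38.4% and 48.8% of all genes tested passed in either direction (20.5% and 25.3% lower). At an unadjusted p under 0.05 the members were 2 and 4, where 50.8% and 56.7% of all genes tested were under it. Groups that did not overlap, with the wild type higher, were found for 2 members in low-Pi and all 5 in high-Pi, where the shares over all genes were 25.6% and 28.9%. The median log2 fold change over the 5 genes was −0.68 in low-Pi and −0.999 in high-Pi, against 0.07 and −0.02 over all genes tested. Without both wild-type replicates I, all 5 genes reached adjusted p ≤ 0.05 in both media (highest edgeR adjusted p 0.00400 in low-Pi for *ire-1* and 0.0131 in high-Pi for PDI), but 72% and 70.7% of all genes did so in those fits. *grp78* alone reached the fold threshold there too.

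**Figure D2:**
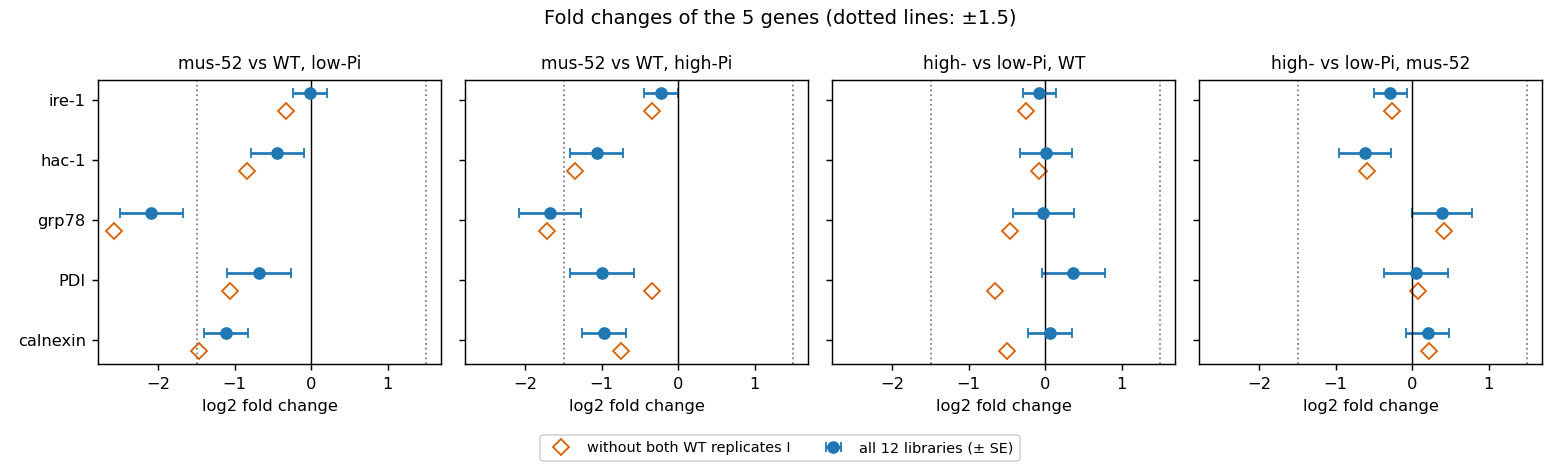
Log2 fold change of the 5 genes in the comparisons of strain and of medium (horizontal axis; negative values are lower in the libraries labelled *mus-52* or in high-Pi), with all 12 libraries (filled, ± SE) and without both wild-type replicates I (open). *grp78* lies beyond −1.5 in both strain comparisons, and PDI in the wild type moves from 0.37 to −0.65 when replicate I is left out.

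A pair of further genes of disulfide bond formation in the ER, named in the study's supplementary lists, was taken as context. NCU02074, annotated there as endoplasmic oxidoreductin-1, encodes the enzyme that in yeast reoxidises PDI. It had 41.2, 227 and 222 CPM in low-Pi in the wild type and 22.8, 20.1 and 21.2 CPM in the libraries labelled *mus-52*. Its high-Pi levels were 137, 112 and 141 CPM against 28.2, 27.0 and 23.3 CPM. Every wild-type library was above every other library in both media, and the log2 fold changes were −2.93 in low-Pi (SE 0.486, edgeR adjusted p = 0.00226) and −2.31 in high-Pi (SE 0.474, edgeR adjusted p = 0.00375). The study lists NCU02074 as possibly under mating-type control. NCU00813, a second disulfide isomerase, was at 10.5, 37.5 and 38.5 CPM in low-Pi in the wild type and 10.2, 7.89 and 8.44 CPM in the libraries labelled *mus-52*. Its levels in high-Pi were 29.4, 23.6 and 18.2 CPM against 10.5, 12.1 and 9.41 CPM. It was a DEG in low-Pi (log2 fold change −1.70, SE 0.401, edgeR adjusted p = 0.00938), and its log2 fold change in high-Pi was −1.16 (SE 0.395, edgeR adjusted p = 0.0306). The study chose NCU00813 on these samples, and its model overlaps that of NCU00812 by 1011 bp, so its counts are uncertain. Both genes were thus lower where *grp78* was lower, and neither choice is independent of these data.

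The media were then compared within each strain. In the wild type none of the 5 genes passed the test, where 0.478% of all genes tested reached adjusted p ≤ 0.05 and 0.219% were DEGs. The members' groups all overlapped, where 12.7% of all genes had groups that did not. With edgeR the log2 fold change of high-Pi against low-Pi was −0.08 for *ire-1* (SE 0.218, adjusted p = 0.911), 0.01 for *hac-1* (SE 0.341, adjusted p = 0.997) and −0.02 for *grp78* (SE 0.397, adjusted p = 0.989). It was 0.37 for PDI (SE 0.416, adjusted p = 0.758) and 0.06 for calnexin (SE 0.287, adjusted p = 0.953), again from edgeR. A difference within these errors was not detectable with 3 replicates a group. The number of members with an unadjusted p under 0.05 was 0, where 13.3% of all genes tested were under it, and DESeq2 also made no call among the members.

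Without both wild-type replicates I, *grp78*, PDI and calnexin were lower in high-Pi than in low-Pi in wild-type germlings. Their log2 fold changes were −0.46 for *grp78* (edgeR adjusted p = 0.0165), −0.65 for PDI (adjusted p = 0.00254) and −0.50 for calnexin (adjusted p = 0.00955), while *ire-1* (−0.25, adjusted p = 0.107) and *hac-1* (−0.08, adjusted p = 0.693) did not pass. These fits compare 2 libraries with 2, and 16.1% of all genes reached adjusted p ≤ 0.05 in them. The signs for PDI and calnexin were the opposite of those with all libraries, so the direction of their response to Pi in the wild type depended on replicate I.

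In the libraries labelled *mus-52* the replicates lay close together and 3 members did not overlap between the media, where 46.5% of all genes did not overlap. *hac-1* had 297, 347 and 348 CPM in low-Pi and 198, 210 and 240 CPM in high-Pi, and *ire-1* was likewise higher in all 3 low-Pi libraries. *grp78* went the other way, with 368, 323 and 379 CPM in low-Pi and 499, 460 and 442 CPM in high-Pi. The log2 fold changes were −0.62 for *hac-1* (SE 0.343, edgeR adjusted p = 0.422), −0.29 for *ire-1* (SE 0.218, edgeR adjusted p = 0.606) and 0.39 for *grp78* (SE 0.398, edgeR adjusted p = 0.742). PDI (0.05, edgeR adjusted p = 0.984) and calnexin (0.20, edgeR adjusted p = 0.844) overlapped. No member was a DEG, against 2.61% of all genes tested.

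The SE in the comparison of the media in the libraries labelled *mus-52* was shared with the wild type, whose replicates I spread most. When the 6 libraries labelled *mus-52* were fitted alone, *ire-1* (−0.28, edgeR adjusted p = 0.0189), *hac-1* (−0.61, adjusted p = 0.00182) and *grp78* (0.39, adjusted p = 0.0123) passed the adjusted p-value, where 31.7% of all genes did. Their changes stayed far below the fold threshold. They also passed in the fit without both wild-type replicates I, at −0.27 for *ire-1* (edgeR adjusted p = 0.0208), −0.60 for *hac-1* (adjusted p = 0.000370) and 0.41 for *grp78* (adjusted p = 0.00452), where 33.2% of all genes did. In both of these fits the stress sensor and its transcription factor were lower in high-Pi while the chaperone *grp78* was higher. With all 4 replicates I left out, *hac-1* (−0.63, edgeR adjusted p = 0.000519) and *grp78* (0.36, adjusted p = 0.0304) passed, but *ire-1* did not.

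The responses of the strains to Pi were compared by the interaction of strain and Pi, in which 4.26% of all genes tested were DEGs and no member was. The interaction was 0.41 on the log2 scale for *grp78* (edgeR adjusted p = 0.741), −0.63 for *hac-1* (adjusted p = 0.520), −0.21 for *ire-1* (adjusted p = 0.758), −0.32 for PDI (adjusted p = 0.812) and 0.14 for calnexin (adjusted p = 0.883). Without both wild-type replicates I it was 0.87 for *grp78* (edgeR adjusted p = 0.000899), 0.73 for PDI (adjusted p = 0.00394), 0.72 for calnexin (adjusted p = 0.00298) and −0.51 for *hac-1* (adjusted p = 0.0285), in fits where 25.5% of all genes passed. Leaving out only wild-type replicate I in low-Pi gave 0.92 for *grp78* (edgeR adjusted p = 0.0223), under the fold threshold. There 335 of 7847 genes tested were DEGs, a rule that needs the fold threshold too. The share passing the adjusted p-value alone was not computed for that fit, and was 5.94% with all libraries. A difference between the strains in their response to Pi was thus detected for *grp78*, PDI, calnexin and *hac-1* without both wild-type replicates I. With only the low-Pi library left out it was detected for *grp78* alone, and with all 12 libraries for no member.

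Replicate I of the wild type decided much of the spread of these genes, and it deviated differently in the 2 media. In low-Pi all 5 genes were lower in replicate I than in the mean of replicates II and III, by 1.88-fold for *ire-1*, 2.58-fold for *hac-1*, 4.10-fold for *grp78*, 2.37-fold for PDI and 2.16-fold for calnexin. The context genes of disulfide bond formation were lower too, by 3.62-fold for NCU00813 and 5.45-fold for NCU02074. In high-Pi replicate I was 2.87-fold the mean of II and III for PDI and 1.59-fold for calnexin, but 1.01-fold for *grp78*, and it was 1.90-fold lower for *hac-1* and 1.2-fold lower for *ire-1*. Replicate I of the wild type in low-Pi thus had low values throughout the group, while in high-Pi PDI and calnexin were above, and *hac-1* and *ire-1* below, the other replicates. The summed level of the 5 genes was 1239 CPM in replicate I of the wild type in low-Pi against 3780 and 3696 CPM in replicates II and III, and it was 1187 to 1311 CPM in the 6 libraries labelled *mus-52*. The wild-type sums in high-Pi were 3261, 2951 and 2722 CPM.

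**Figure D3:**
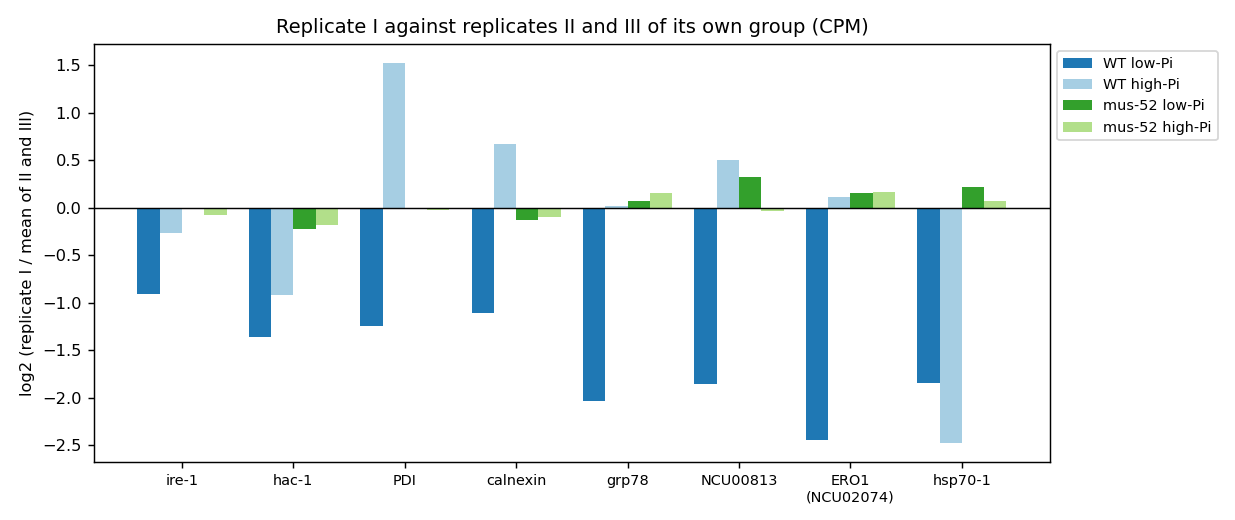
Log2 ratio of replicate I to the mean of replicates II and III of its own group in CPM (vertical axis), for the 5 genes, the context genes NCU00813 and NCU02074 (ERO1) and the cytosolic chaperone gene *hsp70-1*, with 1 bar per group and no error bars since each is a single ratio. All bars of the wild type in low-Pi are below 0, PDI and calnexin are above 0 in high-Pi, and the bars of the libraries labelled *mus-52* stay close to 0.

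Ratios of counts within a library do not depend on the scaling between libraries. The ratio of *grp78* to *ire-1* counts was 6.43 to 14.4 in the wild type in low-Pi and 11.7 to 14.7 in high-Pi, but 2.64 to 3.19 and 4.35 to 5.24 in the libraries labelled *mus-52*. The ratio of *grp78* to *hac-1* was 2.26 to 3.73 and 2.56 to 5.29 in the wild type, against 0.931 to 1.24 and 1.84 to 2.52 in the libraries labelled *mus-52*. Both ratios separated the strains without overlap in each medium, replicate I included, but for *grp78* to *hac-1* in high-Pi only narrowly. The share of all gene pairs whose ratio does so was not computed. By level alone, 54.8% of all genes tested in low-Pi and 60.5% in high-Pi did not overlap between the strains, in either direction. The ratio of *hac-1* to *ire-1* was 2.85 to 4.16 in the wild type and 2.46 to 2.93 of the libraries labelled *mus-52*, which overlapped, and 2.78 to 4.59 against 2.08 to 2.36 in high-Pi, which did not. The ratio of *grp78* to calnexin was 1.62 to 3.17 against 1.35 to 1.56 in low-Pi, and 2 to 3.17 against 1.5 to 1.82 in high-Pi. *grp78* was thus lower in the libraries labelled *mus-52* relative to *ire-1*, *hac-1* and calnexin too. These ratios come from the same counts as the fold changes and are not separate evidence of them. The ratio of *grp78* to PDI separated the strains in low-Pi (3.43 to 5.94 against 2 to 2.16) but overlapped in high-Pi (2.38 to 7.21 against 2.42 to 2.84). The ratio of calnexin to PDI separated the strains in low-Pi (1.87 to 2.11 in the wild type against 1.38 to 1.53) and overlapped in high-Pi (1.19 to 2.28 against 1.56 to 1.66).

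How alike the genes were across the 12 libraries was measured as the root-mean-square difference of their log2 CPM after each gene's mean was removed, a description over libraries that share strain and medium. Calnexin and PDI were the closest pair of members at 0.268, and calnexin ranked 17th among all genes in likeness to PDI. *ire-1* and *hac-1* lay at 0.375 and *grp78* and calnexin at 0.484, and *ire-1* and *grp78* were the least alike at 0.917. Among all genes *hac-1* ranked only 1509th in likeness to *ire-1*, and calnexin 226th in likeness to *grp78*. *hac-1* lay at 0.511 from calnexin, 0.641 from PDI and 0.72 from *grp78*, and *ire-1* at 0.534 from calnexin and 0.556 from PDI. *grp78* and PDI lay at 0.681, farther apart than every other pair except those of *grp78* with *ire-1* and with *hac-1*. The measure therefore did not divide the signalling genes from the folding genes.

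**Figure D4:**
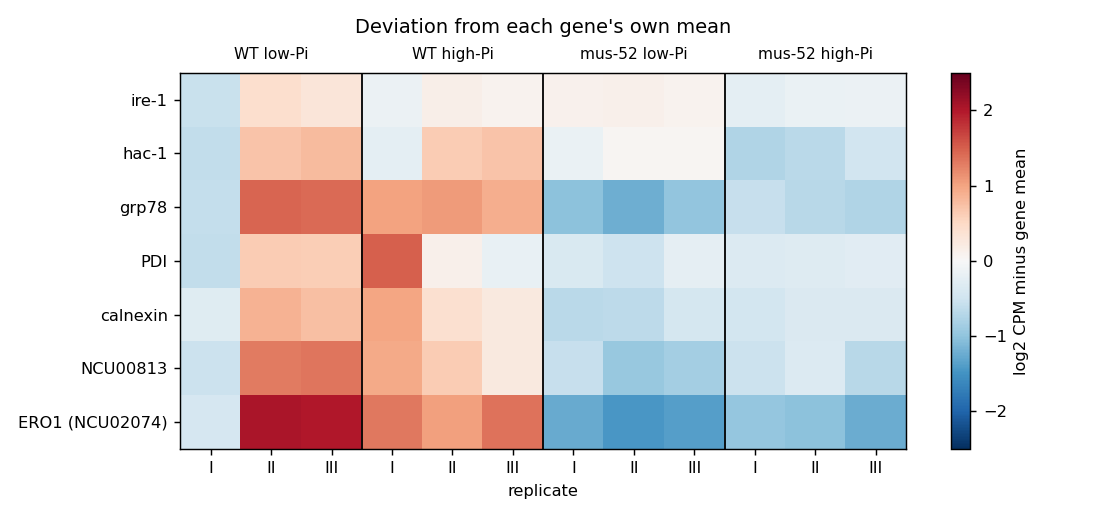
Deviation of log2 CPM from each gene's mean over the 12 libraries (colour; red above, blue below), with libraries in columns by group and replicate and the 5 genes and 2 context genes in rows. *grp78* and NCU02074 are blue in all 6 libraries labelled *mus-52* and in replicate I of the wild type in low-Pi, while *ire-1* stays pale throughout.

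For each member the tested genes with the most similar pattern were also found. The nearest to *grp78* was NCU02936 at a difference of 0.22, followed by NCU03028 and NCU07545 at 0.241 and 0.242. NCU02936 had 151 ± 98.3 CPM in the wild type and 37.0 ± 2.79 CPM in those labelled *mus-52* in low-Pi, and 125 ± 7.57 against 51.9 ± 6.53 CPM in high-Pi (SD, n = 3). The nearest to calnexin was NCU08803 at 0.142, then NCU05244 and NCU00715 at 0.164 each. NCU05244 was also second nearest to PDI at 0.228, after NCU02055 at 0.218 and before NCU08669 at 0.231. The nearest to *hac-1* were NCU03950 at 0.127, NCU02644 at 0.164 and *nic-5* at 0.17, and the nearest to *ire-1* were NCU08283, NCU09000 and *pex26* at 0.0889, 0.0894 and 0.0955. The names table gives no symbol for the genes printed by identifier.

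Markers outside the ER moved with strain and with replicate I as well. The summed level of 10 genes with a heat shock symbol, a list added after values had been seen, was 18500 to 54180 CPM in the wild type in low-Pi (median 51300) and 5445 to 39680 CPM in high-Pi (median 38140). It was 8559 to 9137 CPM and 9427 to 9788 CPM in the libraries labelled *mus-52*. Of these 10 genes, 6 were DEGs in low-Pi, all lower in the libraries labelled *mus-52*, where 7.51% of all genes tested were lower DEGs. In high-Pi 6 were lower DEGs and 1 a higher DEG, where 11.7% and 7.35% of all genes tested were. The median log2 fold changes of the list were −2.29 in low-Pi and −1.76 in high-Pi. *hsp70-1*, a cytosolic relative of *grp78*, had 4887 CPM in replicate I of the wild type in low-Pi against a mean of 17500 CPM in replicates II and III, and 2062 against 11480 CPM in high-Pi. *grp78* and *hsp70-1* thus were both low in replicate I in low-Pi, but in high-Pi *grp78* was not.

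Conidial RNA was followed by *con-6*, *con-8*, *con-10*, *con-13* and *eas*, genes of conidial development and of the spore coat. Their summed level was 8.99 to 11.7 CPM in the wild type in low-Pi (median 10.3) and 9.78 to 12.1 CPM in high-Pi, against 16.4 to 46.0 CPM (median 20.7) and 27.2 to 30.9 CPM (median 27.9) in the libraries labelled *mus-52*. None of the 5 was at 0 in every library of a group. In the libraries labelled *mus-52*, 2 of 5 were higher DEGs in low-Pi (*con-10* and *con-13*, log2 fold changes 2.70 and 2.42). In high-Pi 1 of 5 was a higher DEG (*con-6*, 3.48). Over all genes tested, 5.84% were higher DEGs in low-Pi and 7.35% in high-Pi. The low-Pi calls rest on few wild-type reads, with 56, 18 and 30 counts for *con-10* and 0, 13 and 15 for *con-13*. The other values did not pass the test and were mixed in sign, with *con-8* at −1.53 in low-Pi and −1.36 in high-Pi, *con-13* at −1.36 in high-Pi, and *eas* at 0.52 and 0.45. The summed conidial level did not overlap between the strains in either medium, and the summed heat shock level did not in low-Pi but did in high-Pi through wild-type replicate I. Their part in the *grp78* result was not tested. The gene of beta-tubulin, a reference gene of the study, had log2 fold changes of 0.02 and 0.05 between the strains. The study's other reference gene, actin (NCU04173), had 0 or 1 counts in every library and was not tested. Since actin is a gene that every cell uses, a count near 0 in these tables does not show that a gene was not expressed.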

How the data were processed

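The authors checked the reads with FastQC (version 0.11.2), mapped them with Bowtie2 (2.1.0) to the NC12 genome and deposited whole-number counts of reads per gene, without normalization, for 12 libraries. The counting tool and its use of strand are not given in the sources used here. The authors' deposited DESeq (1.28.0) tables hold their fold changes and p-values for the comparison of media and were not used. Groups came from strain, medium and replicate in the labels. The replicates are named as biological, with no batch or date.

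Counts were normalised with TMM factors (0.894 and 1.32 in the wild-type replicates I in low- and high-Pi, 0.915 to 1.03 elsewhere) and filtered with filterByExpr. They were tested with edgeR's quasi-likelihood test (edgeR 4.0.16, limma 3.58.1, R 4.3.3) in 1 robust fit of 4 groups over all 12 libraries. Adjustment followed Benjamini and Hochberg over 7746 genes, and log2 CPM used a prior count of 2. The procedure was tested on simulated counts with 1 dispersion for all genes and no outlying library. That test does not cover the spread of the wild-type replicates I. Names and positions came from the RefSeq table of NC12, which held 9729 of the 9730 identifiers, and the names of the members are those given with their identifiers (the table calls NCU02202 *stk-14*). Named were the 5 members, *mus-52*, the ER genes that the study's lists annotate, and for each member the 3 genes nearest in pattern. A list of ER-retained proteins was planned but needs protein sequences, which were not used here. A list by ER symbols or products matched 1 gene, *grp78*. Members and lists were chosen with earlier results of these data known.

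Deviations of same-numbered libraries from their group means correlated across genes at 0.357, 0.210 and 0.337 (I, II and III) between the media in the wild type, so these numbers pair the libraries by the rule used (over 0.1 for each). They were 0.290, 0.0945 and 0.133 in the libraries labelled *mus-52*, and −0.134 to −0.0172 between strains, which do not. The alternatives were DESeq2 (1.42.0), RLE factors, other filters on low counts, only the libraries compared, the replicate block, libraries left out, and the adjusted p-value alone.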

Additional observations from a re-analysis of the deposited data

How the results depend on the processing

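Of 520 fold changes of members recomputed under alternatives, 488 kept their direction and their side of the DEG threshold, 29 changed sign and 3 passed only because the fold threshold was dropped. Except for *grp78* between strains, no value reached the fold threshold in any setting, so none could become a DEG while that threshold was kept. The count of 488 therefore does not show how steady the adjusted p-values were. Many values counted as kept crossed the adjusted p threshold, mostly in fits that left out libraries, as given above for each member. *grp78* was a DEG in both strain comparisons under every alternative run. With the adjusted p-value alone, the members called were 2 in low-Pi and 3 in high-Pi in place of 1. With the replicate block no DEG call among the members changed, and *ire-1* between strains in low-Pi was 0.024 and *grp78* between media in the wild type 0.057. Without a filter on low counts *ire-1* between strains in low-Pi was 0.0026. With wild-type replicates I left out, or all replicates I, the values for high-Pi against low-Pi in the wild type were −0.084 and −0.072 for *hac-1*, −0.65 and −0.64 for PDI, and −0.50 and −0.49 for calnexin, and the interaction for PDI was 0.73 and 0.70. With 1 library left out, *ire-1* between strains in low-Pi ranged from −0.34 to 0.16. Between media in the wild type the ranges were −0.32 to 0.11 for *ire-1*, −0.32 to 0.26 for *hac-1*, −0.45 to 0.26 for *grp78*, −0.33 to 0.64 for PDI and −0.24 to 0.27 for calnexin, and in the interaction −0.39 to 0.12 for *ire-1*, −0.52 to 0.39 for PDI and −0.066 to 0.52 for calnexin. The order of the genes per kb of coding length was not run, since it needs protein sequences. Apart from what leaves out libraries, the cause of these shifts was not tested.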
